A study of Arabidopsis thaliana with 12 samples.

Results

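The 200 most abundant transcripts of imbibed Arabidopsis thaliana seeds are described here. They were chosen on their signal. Of 22746 probe sets on the array, 13513 matched exactly 1 gene in the supplied annotation, and 13379 of these were nuclear candidates once isocitrate lyase (ICL), late embryogenesis abundant (LEA) genes and genes encoded in the plastid or mitochondrial genome had been left out. The candidates were ranked by their mean log2 signal over the 12 arrays and the first 200 were kept, which represent 200 distinct genes. Seeds were of 2 genotypes, pil5 (Salk_072677), an insertion line for the transcription factor gene PIL5, and the Col-0 wild type. A far-red pulse (3.2 µmol m-2 s-1 for 5 min) was given to all seeds, and a red pulse (13 µmol m-2 s-1 for 5 min) was added in the red groups. The seeds of every group then stayed in the dark for 12 h on aqueous medium, and "dark" below stands for seeds whose last light was far-red. The 4 groups, pil5 red, pil5 dark, Col-0 red and Col-0 dark, held 3 biological replicates each, with total RNA of each sample on 1 Affymetrix array. A single insertion line stood for the mutant, and its PIL5 transcript could not be checked because the annotation ties no probe set to that gene.

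As background, a seed that takes up water restarts metabolism from RNA stored during maturation and from new transcription. Much of its early RNA encodes ribosomal proteins, translation factors, proteases that act on stored protein, and enzymes that turn reserves into sugars. Light is read through phytochrome, which red light activates and far-red light inactivates. PIL5, also called PIF1, is a bHLH factor that represses germination in the dark and is degraded once phytochrome has been activated, and seeds without it can germinate after far-red.

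The log2 values were used as deposited. An array signal depends on the probes as well as on the RNA, so the order of the 200 is an order of signals and only approximately one of transcript numbers. Seeds were measured whole, and fewer cells of a type and less RNA per cell cannot be told apart. Of 14 seed genes listed as tissue markers, OLEO3 was the only one with a probe set of its own, and an oleosin such as this coats the oil bodies of seeds. Its log2 signal was 9.31, 9.44 and 9.95 in pil5 red, 9.41, 9.49 and 8.75 in pil5 dark, 9.34, 9.50 and 9.24 in Col-0 red and 10.14, 10.19 and 9.80 in Col-0 dark. Of 10 genes of green seedling tissue 1 was measured, RCA, whose product activates the carbon-fixing enzyme Rubisco. It had 7.06, 6.84 and 7.04 in pil5 red, 6.97, 7.07 and 7.27 in pil5 dark, 7.29, 7.23 and 7.27 in Col-0 red and 7.79, 7.74 and 7.65 in Col-0 dark. None of the 2 endosperm genes listed could be measured. RCA was higher in the 3 Col-0 dark arrays than in any other array, and so was OLEO3 except for the third pil5 red array. Col-0 dark also stood apart for many of the members described below, and the part of other tissues in those results was not tested.

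The mean log2 signal of the members ran from 14.01 for AT5G20290 to 11.73 for AT1G27461. The last members inside the limit were AT5G02050 with 11.75, AT2G17360 with 11.74 and AT1G27461, and the first outside it were AT1G51980 with 11.73, AT4G25740 with 11.72 and AT5G46020 with 11.71. Above the last member stood 1 ICL, 8 LEA and 4 plastid probe sets that the rule leaves out. Of all probe sets, 540 were brighter than the last member, and among the 200 brightest of all only 77 matched 1 gene, while 20 matched several and 103 none. The 200 members therefore cover only part of the most abundant RNA. Of each group's own 200 highest candidates, 192 were members in pil5 red, 189 in pil5 dark, 188 in Col-0 red and 178 in Col-0 dark, and 163 members stood in the list of all 4 groups.

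**Figure D1:**
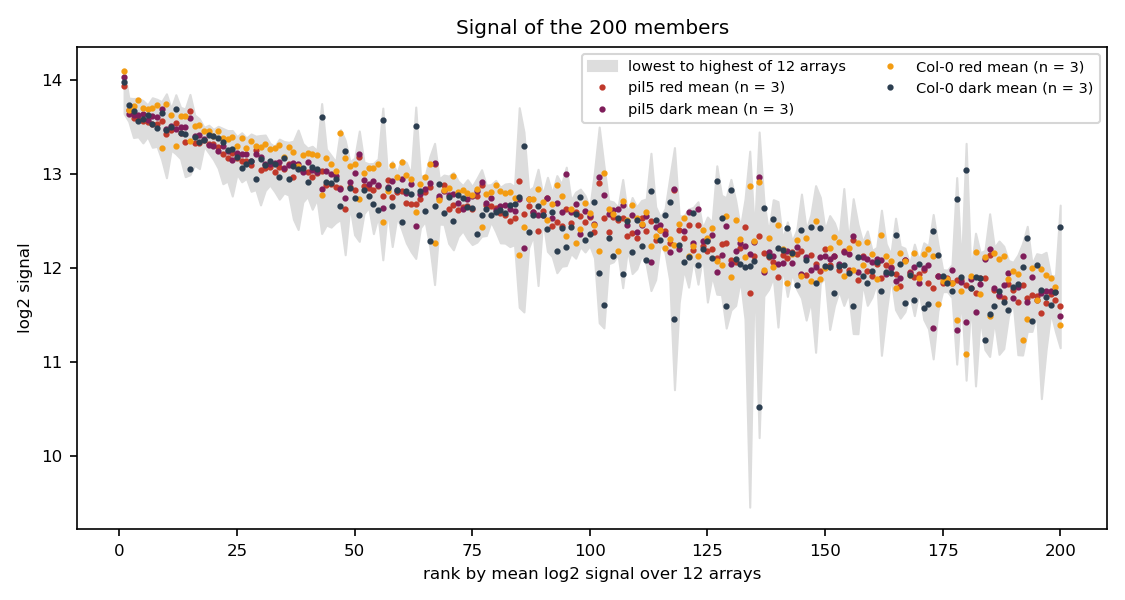
Log2 signal of the 200 members (vertical axis) by their rank on the mean of 12 arrays (horizontal axis). Points are the means of pil5 red, pil5 dark, Col-0 red and Col-0 dark (n = 3 arrays each), and the grey band spans the lowest to the highest of the 12 arrays. The band is narrow at the left, where signals approach 14.01, and has deep spikes at the right for genes such as AT1G01300 and CP1.

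All 200 members were matched to the RefSeq gene table (TAIR10.1), which gives a name beyond the locus tag for 30 of them. The other 170 are known here by locus tag only and are given no function. The sizes of the role groups below therefore reflect which members carry a name, and do not show what the 200 as a whole encode. The 30 named members fell into 6 groups by role: 8 of proteolysis, 5 of protein synthesis and ribosome assembly, 3 of RNA binding and chromatin, 5 of carbon and polyamine metabolism, 6 electron carriers, redox and membrane proteins, and 3 defensins and storage proteins. The first 15 by signal were AT5G20290, LCR67, AT3G09200, AT3G60245, AT3G49910, AT1G52300, AT5G15200, AT3G05560, APA1, AT5G14450, AT1G67430, AT1G62510, AT3G53430, AT2G19730 and ARA12. The 3 named genes among them encode a defensin (LCR67), an aspartic proteinase (APA1) and a subtilisin-like serine protease needed for the release of seed coat mucilage (ARA12).

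Of these 15, APA1 and AT1G62510 were called for red in Col-0 and 0 for genotype in the dark. AT5G20290, the brightest, had 14.08, 14.10 and 13.65 in pil5 red, 14.08, 14.12 and 13.92 in pil5 dark, 14.12, 14.08 and 14.08 in Col-0 red and 13.97, 13.91 and 14.06 in Col-0 dark. LCR67 spanned only 0.25 log2 units over the 12 arrays, with 13.58, 13.66 and 13.81 in pil5 red, 13.56, 13.68 and 13.68 in pil5 dark, 13.62, 13.69 and 13.73 in Col-0 red and 13.76, 13.75 and 13.71 in Col-0 dark. For LCR67 the 3 Col-0 dark arrays lay just above those of pil5 dark and the other pairs of groups compared overlapped, and for AT5G20290 Col-0 red lay just above Col-0 dark with both within the range of pil5 red and pil5 dark or close to it. The steadiest member was AT3G58610, singled out after its values were seen, whose 12 arrays spanned 0.20. At the other end AT1G01300, also singled out in this way, spanned 3.79, with 13.16, 12.59 and 9.46 in pil5 red, 13.04, 12.77 and 10.63 in pil5 dark, 13.25, 13.10 and 12.28 in Col-0 red and 12.65, 12.24 and 11.18 in Col-0 dark. Its lowest value in each group was that of replicate 3. Over the members the range across the 12 arrays had a median of 0.67, and the pooled SD within groups had a median of 0.18, against 0.17 over all probe sets.

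The third pil5 red array stood apart. The median deviation of the members from their 12-array mean was -0.28 on this array and between -0.13 and 0.16 on the other 11. On it 157 members (78.5%) lay below the mean of the other 2 pil5 red arrays, as did 48.8% of all probe sets. On this array 163 members were among its own 200 highest candidates, against 172 to 192 on the others. The lesser shift of the third arrays was shared by all groups, in that replicate 3 was the lowest of its group in all 4 groups for 69 members (34.5%, against 12.8% of all probe sets) and the highest in all 4 for 12 (6%, against 13.7%).

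**Figure D2:**
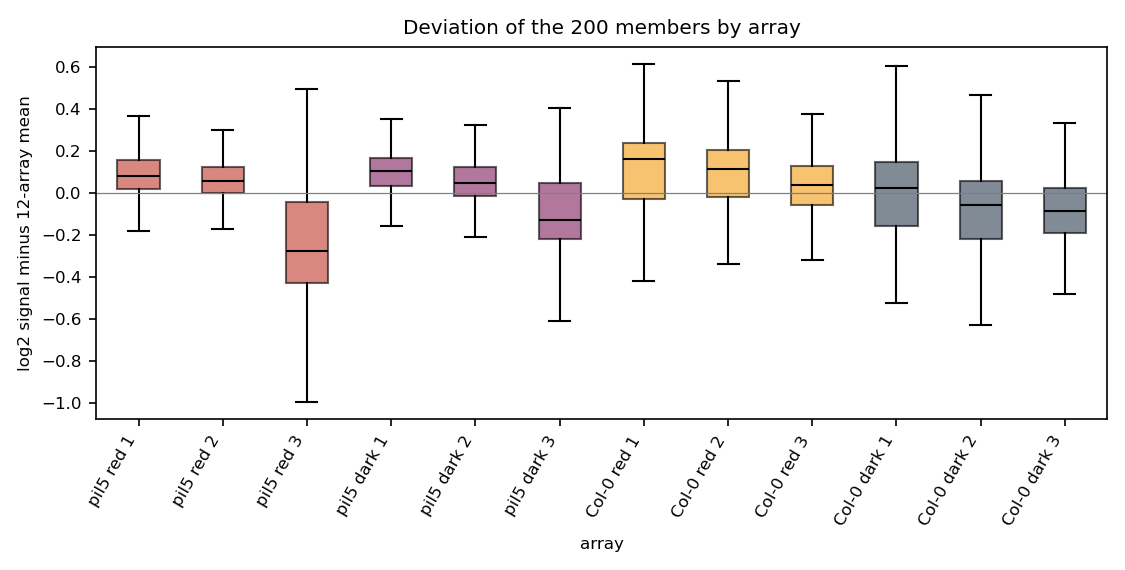
Deviation of the 200 members from their 12-array mean (log2, vertical axis) on each array (horizontal axis, pil5 red, pil5 dark, Col-0 red and Col-0 dark from left to right). Boxes span the quartiles with the median as a line, whiskers reach to 1.5 times the box height or the last value within it, and values beyond are not drawn. The third pil5 red array has the lowest median, at -0.28, and the third array of each group has the lowest median of its group.

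Every difference below comes from 1 limma fit to the 12 arrays and all 22746 probe sets, two-sided, with Benjamini-Hochberg adjustment over all of them. A member is called where its adjusted p is under 0.05, and SE is the standard error of the fit with 3 arrays per group. Replicates of the same number deviated together across the groups, so counts of called members are given also from a fit that holds this number as a block. The ranking used the mean over all arrays, which does not enter the differences between groups.

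The first comparison asks which of the abundant transcripts differed by last light in Col-0. Red-treated seeds had more RNA for the cysteine proteinase CP1 and, by lesser amounts, for the initiation factor EIF4A-2, the respiratory electron carrier CYTC-1 and the exon junction protein Y14. They had less for the formate dehydrogenase FDH, the iron-sulphur scaffold ISU1, the ubiquitin carrier UBC28, the glutaredoxin GRXC2, the proteinase APA1 and the histone HTB4. These are the 10 named members called, and their values follow by role. In red-treated Col-0 seeds 39 of the 200 members had changed against Col-0 dark, 19.5% of them, where 15.1% of all probe sets were called. Of these 21 were higher after red (10.5% of the members, against 7.81% of all probe sets) and 18 were lower (9%, against 7.33%). With the block 70 members were called, 44 higher and 26 lower, or 35%, against 26.4% of all probe sets, and all 39 were among them. Of the 39, 5 (6 of the 70 called with the block) differed by 2-fold or more, CP1 and AT5G67510 upward and AT3G56350, AT1G54870 and AT1G27461 downward. The share of all probe sets called at 2-fold or more is not given here, so this count does not set the members apart. The 3 red and 3 dark arrays did not overlap for 103 members, where the same held for 33.3% of all probe sets. The median log2 change of the members was 0.15, against 0.00 over all probe sets.

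The second comparison asks which differed by genotype when far-red was the last light. The pil5 seeds had more RNA for CP1, EIF4A-2, CYTC-1, Y14 and the proteasome subunit RPN12a, and less for FDH, GRXC2, HTB4, the storage protein PAP85 and the plantacyanin ARPN. In pil5 dark 27 members differed from Col-0 dark, which is 13.5%, where 12.1% of all probe sets did. There were 16 higher (8% of the members, against 6.08% of all probe sets) and 11 lower (5.5%, against 6.01%). With the block the count was 52, or 26%, against 23.8% of all, with 32 higher and 20 lower, and all 27 were among them. The groups did not overlap for 78 members and for 29.5% of all probe sets. The median log2 change was 0.05 for the members and 0.01 over all probe sets. By 2-fold or more 7 called members (9 with the block) differed, again without a share of all probe sets to set beside them. Both comparisons use the same Col-0 dark arrays, so a member high or low in those arrays moves in both, and the 2 sets of values are given side by side without counting their overlap as a result.

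In pil5 seeds no abundant transcript was called for last light. With pil5 red against pil5 dark 0 members were called, 0% of all probe sets were called, and neither count changed with the block. At an unadjusted p under 0.05 limma had 0 members and 267 of all probe sets (1.17%), or 692 (3.04%) with the block. The lack of calls does not show that red changed nothing in pil5. The groups did not overlap for 3 members (AT5G20890, RBP45B and AT2G45710) and for 4.46% of all probe sets. The log2 changes ran between -0.63 and 0.53 with a median of -0.06. After red, 0 members differed between pil5 and Col-0, where 0.193% of all probe sets did, and 20 members (10%) had an unadjusted p under 0.05, against 12% of all probe sets. With the block that count was 80 (40%), against 23.2% of all. The groups did not overlap for 48 members, against 16.7% of all probe sets, and the median log2 change was -0.16. With the block 10 members were called, 6 higher and 4 lower in pil5, which is 5% against 8.27% of all probe sets. The higher ones were TIL, AT3G19920, AT3G05500, AT5G27760, AT4G24820 and AT1G65820, by 0.84 to 0.33, and the lower ones AT5G11420, AT5G20950, AT3G08030 and AT3G12390, with -0.58 to -0.45.

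The red effect itself differed between genotypes for 15 members, 7.5% of them, where the interaction was called for 6.34% of all probe sets. It was more positive in pil5 for 5 (2.5% of the members, against 3.12% of all probe sets) and more negative in pil5 for 10 (5%, against 3.22%). With the block 43 were called, or 21.5%, against 17.5% of all. A test for any difference among the 4 groups called 21 members, 10.5%, against 11.3% of all probe sets, and with the block 68, or 34%, against 29.2%. The members' shares in these tests thus lay near those of the whole array.

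**Figure D3:**
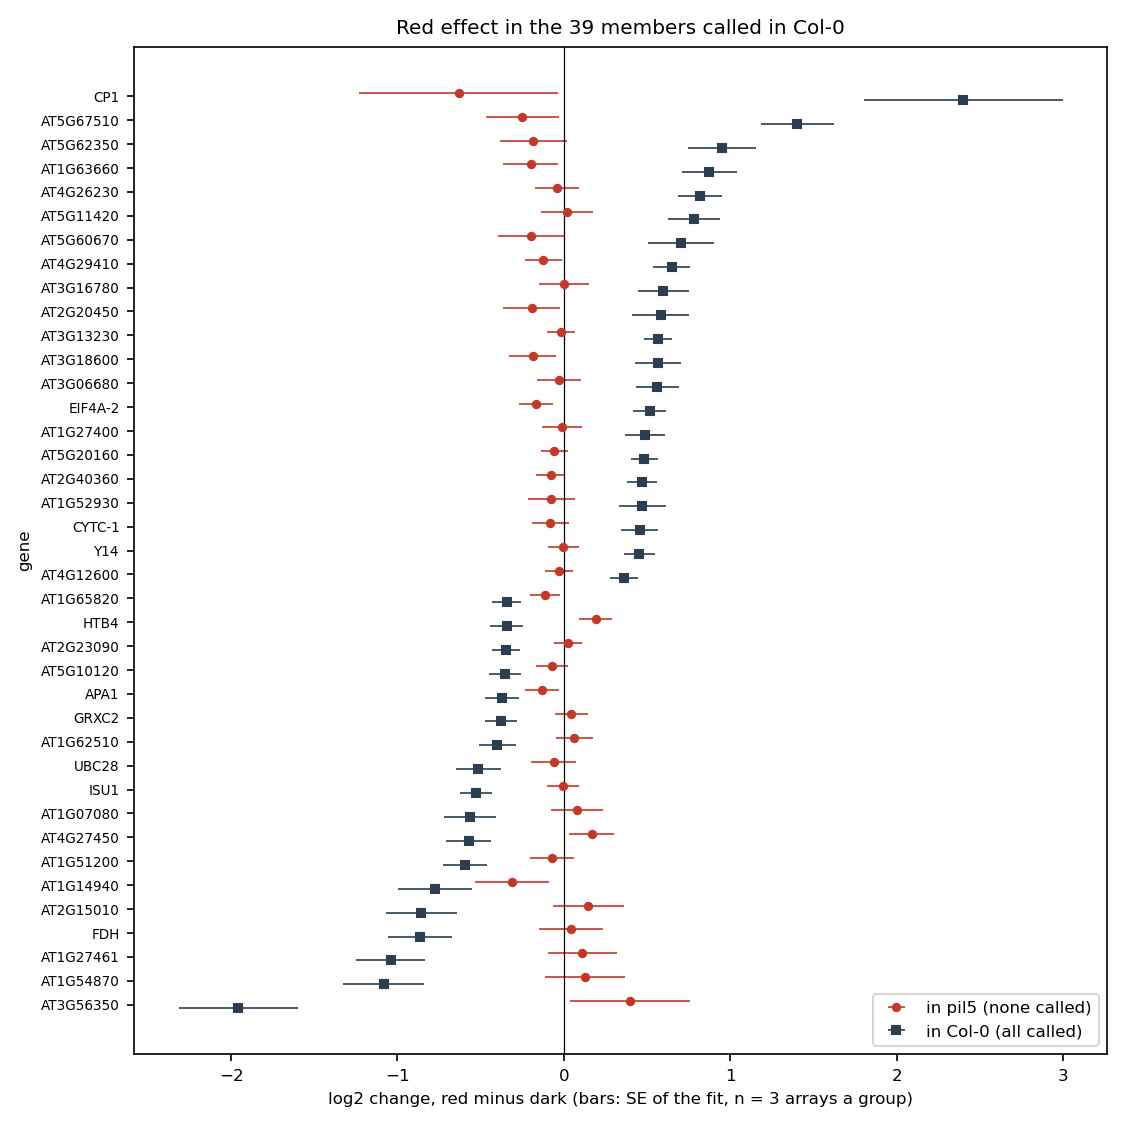
Log2 change, red minus dark, of the 39 members called in Col-0 (horizontal axis), with 1 gene per row. Red circles are the change in pil5 and dark squares the change in Col-0, and bars are the SE of the fit (n = 3 arrays a group). In Col-0 the values run from 2.40 for CP1 to -1.96 for AT3G56350, while in pil5 they run from -0.63 for CP1 to 0.40 for AT3G56350 with a median size of 0.08, and 0 of the 39 are called. The median size in pil5 is also 0.08 over all 200 members. Since the 39 were chosen by their call in Col-0, their sizes in the 2 genotypes are no fair comparison.

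Signal and calls were related within the set. Of the 50 brightest members, 3 were called for red in Col-0 (6%) and 0 for genotype in the dark. The 3 were APA1, AT1G62510, lower by 0.40 (SE 0.11, adjusted p = 0.036), and AT5G11420, higher by 0.78 (SE 0.16, adjusted p = 0.0087). The next 50 had 8 called in each comparison (16%). The 50 after these had 14 (28%) and 8 (16%), and the last 50 had 14 (28%) and 11 (22%). The next 200 candidates below the limit had 63 (31.5%) and 57 (28.5%). With the block the 4 bands had 8, 18, 22 and 22 called for red in Col-0 (16%, 36%, 44% and 44%, against 26.4% of all probe sets). For genotype in the dark they had 3, 14, 19 and 16 (6%, 28%, 38% and 32%, against 23.8% of all). The next 200 had 94 (47%) and 88 (44%). The median size of the red change in Col-0 was 0.16, 0.21, 0.35 and 0.26 in these 4 bands of members and 0.27 in the next 200. The changes of the 50 brightest were thus smaller than those of the bands below, but near the median size of 0.15 over all probe sets. When all probe sets were split by signal into 10 equal bins, the highest, which holds the members, had 26.4% called without the block for red in Col-0 and 24% for the genotypes in the dark, and both shares exceed those of the members.

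**Figure D4:**
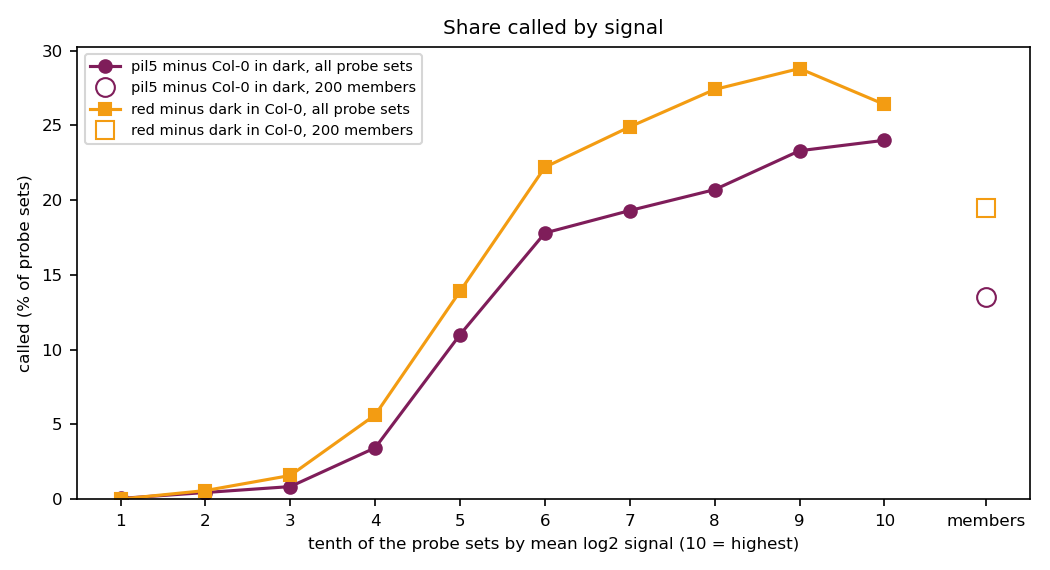
Share of probe sets called (vertical axis, percent) in 10 equal bins of the 22746 probe sets by mean log2 signal (horizontal axis, 10 is the highest), for pil5 minus Col-0 in the dark (circles) and red minus dark in Col-0 (squares). The open symbols at the right are the 200 members, at 13.5% and 19.5%, below the highest bin at 24% and 26.4%.

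Proteolysis was the largest role group among the named members and had the member with the widest difference between groups. In Col-0 after red 1 of its 8 members rose and 2 fell (37.5%, against 15.1% of all probe sets). In pil5 dark 2 rose and 0 fell (25%, against 12.1%). With the block 2 rose and 2 fell after red (50%, against 26.4%), and 4 rose and 1 fell in pil5 dark (62.5%, against 23.8%). Each role group is small, and no difference between its share and that of the array was tested. CP1 (AT4G36880), a papain-type cysteine proteinase, had 13.45, 13.07 and 10.50 in pil5 red, 13.28, 12.93 and 12.71 in pil5 dark, 13.10, 12.95 and 12.73 in Col-0 red and 10.45, 10.20 and 10.92 in Col-0 dark. All 3 Col-0 dark arrays lay far below the arrays of pil5 dark and of Col-0 red, whereas the third pil5 red array stood with them and the other 2 pil5 red arrays with the high groups. CP1 was higher by 2.40 (SE 0.60, limma adjusted p = 0.021) in Col-0 red and by 2.45 (SE 0.60, adjusted p = 0.025) in pil5 dark, both against Col-0 dark. Its red effect in pil5 was -0.63 (SE 0.60, adjusted p = 1.0), or 0.29 without the third pil5 red array. The interaction was -3.03 with adjusted p = 0.06, 0.026 with the block, and -2.11 with adjusted p = 0.0082 without that array.

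The other proteases and their partners differed less. RPN12a (AT1G64520), a subunit of the regulatory particle of the 26S proteasome, was higher in pil5 dark by 0.60 (SE 0.16, adjusted p = 0.035). Its signals were 12.53, 12.71 and 12.66 in pil5 dark against 11.83, 12.07 and 12.20 in Col-0 dark. Col-0 red seeds had 11.97, 12.16 and 12.27. RPN12a thus changed with genotype in the dark, and its red change in Col-0 was 0.10 (SE 0.16, adjusted p = 0.80). After red, in the limma fit without the third pil5 red array, it was higher in pil5 by 0.51 (SE 0.13, adjusted p = 0.16). The genotype difference of RPN12a is therefore not shown to be confined to the dark. APA1 (AT1G11910), the vacuolar aspartic proteinase and the brightest named enzyme, fell after red in Col-0 by 0.37 (SE 0.10, adjusted p = 0.032). It had 13.63, 13.70 and 13.37 in pil5 red, 13.61, 13.77 and 13.71 in pil5 dark, 13.16, 13.31 and 13.37 in Col-0 red and 13.63, 13.70 and 13.63 in Col-0 dark. Col-0 red was the low group, and only the third pil5 red array came as low. UBC28 (AT1G64230), an E2 enzyme that carries ubiquitin, fell by 0.51 (SE 0.14, adjusted p = 0.029) after red in Col-0, with 11.91, 12.04 and 12.09 against 12.73, 12.60 and 12.23 in Col-0 dark.

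ARA12, the subtilisin-like protease, was called for pil5 in the dark with the block and not without it. Its signals were 13.84, 13.81 and 13.37 in pil5 red, 13.74, 13.85 and 13.22 in pil5 dark, 13.39, 13.43 and 13.25 in Col-0 red and 13.00, 13.16 and 13.03 in Col-0 dark. Every pil5 dark array exceeded every Col-0 dark array, with a log2 difference of 0.54 (SE 0.17, adjusted p = 0.065, 0.0086 with the block, and 0.029 with no block once the third pil5 red array was left out). The serine carboxypeptidase-like gene scpl35 (AT5G08260) had 12.95, 12.77 and 12.43 in Col-0 red against 12.02, 12.01 and 11.79 in Col-0 dark. Its change of 0.77 had adjusted p = 0.066, and 0.003 with the block. BETA-VPE (AT1G62710), the vacuolar processing enzyme that matures seed storage proteins, had 12.30, 12.36 and 11.87 in pil5 dark against 12.96, 12.90 and 12.24 in Col-0 dark, with a change of -0.53 (adjusted p = 0.10, and 0.018 with the block). MPPBETA (AT3G02090), a subunit of the peptidase that removes mitochondrial targeting sequences, was steady, and its 12 arrays spanned 0.29.

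Among the 5 genes of protein synthesis, 1 rose in each comparison with Col-0 dark and 0 fell. This is 20%, against 15.1% of all probe sets after red and 12.1% in pil5 dark. With the block 2 rose after red (40%, against 26.4%), and the share in pil5 dark stayed at 20% (against 23.8%). The one called without the block was EIF4A-2 (AT1G54270), an RNA helicase of translation initiation. It had 12.44, 12.51 and 12.24 in pil5 red, 12.46, 12.60 and 12.63 in pil5 dark, 12.58, 12.49 and 12.74 in Col-0 red and 12.04, 12.04 and 12.18 in Col-0 dark. The Col-0 dark arrays held the lowest of the 12 values. EIF4A-2 was higher by 0.52 (SE 0.10, adjusted p = 0.0076) in Col-0 red and by 0.47 (SE 0.10, adjusted p = 0.015) in pil5 dark. Its red effect in pil5 was -0.17, and the interaction of -0.68 (SE 0.14) was called with adjusted p = 0.026.

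The remaining 4 of the protein synthesis group were not called without the block. PGY1 (AT2G27530), a protein of the large cytosolic ribosomal subunit, had a log2 change of 0.15 (SE 0.14) after red in Col-0. For PES (AT5G14520), the pescadillo homologue that acts in ribosome assembly, the change was 0.25 (SE 0.09, adjusted p = 0.081, and 0.0495 with the block). The helicase PRH75 (AT5G62190) had -0.01 (SE 0.11). ALATS (AT1G50200), which charges alanine onto its tRNA, had 0.04 (SE 0.09), and its arrays spanned 0.23. The group's median change was 0.15 after red in Col-0 and 0.03 for genotype in the dark, close to the medians of all members.

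The RNA binding and chromatin group had 1 of 3 members higher and 1 lower in each comparison with Col-0 dark, with the block too. This is 66.7%, against 15.1% of all probe sets after red and 12.1% in pil5 dark (26.4% and 23.8% with the block). Y14 (AT1G51510), a core protein of the exon junction complex left on spliced RNA, had 12.06, 12.17 and 12.02 in pil5 red, 11.96, 12.10 and 12.21 in pil5 dark, 11.98, 12.12 and 12.14 in Col-0 red and 11.54, 11.61 and 11.73 in Col-0 dark. Col-0 dark did not overlap with any other group. Y14 was higher by 0.45 (SE 0.09, adjusted p = 0.0093) in Col-0 red and by 0.47 (SE 0.09, adjusted p = 0.012) in pil5 dark, and its red effect in pil5 was -0.005 (SE 0.09). HTB4 (AT5G59910), a histone H2B, was lower by 0.34 (SE 0.10, adjusted p = 0.04) in Col-0 red and by 0.39 (SE 0.10, adjusted p = 0.029) in pil5 dark. It had 12.42, 12.59 and 12.67 in pil5 red, 12.38, 12.49 and 12.23 in pil5 dark, 12.36, 12.48 and 12.40 in Col-0 red and 12.65, 12.84 and 12.78 in Col-0 dark. Col-0 dark was the high group, and the third pil5 red array alone reached into it. RBP45B (AT1G11650), an RNA-binding protein, was not called, with changes of -0.14 in Col-0 red and -0.20 in pil5 dark.

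Of the 5 enzymes of carbon and polyamine metabolism 1 was called, and it fell in both comparisons with Col-0 dark, with the block too. This is 20%, against 15.1% of all probe sets after red and 12.1% in pil5 dark (26.4% and 23.8% with the block). FDH (AT5G14780), the mitochondrial formate dehydrogenase, had 11.33, 11.67 and 12.06 in pil5 red, 11.34, 11.70 and 11.90 in pil5 dark, 11.44, 11.61 and 11.33 in Col-0 red and 12.42, 12.45 and 12.11 in Col-0 dark. The Col-0 dark arrays held the highest of the 12 values. The change was -0.87 (SE 0.19, adjusted p = 0.014) in Col-0 red and -0.68 (SE 0.19, adjusted p = 0.044) in pil5 dark. None of the sugar and polyamine enzymes beside FDH was called. GAPC2 (AT1G13440), a cytosolic glyceraldehyde-3-phosphate dehydrogenase, had a change of -0.17 (SE 0.13) and TPI (AT3G55440), triose phosphate isomerase, of 0.01 (SE 0.08) after red in Col-0. PPDK (AT4G15530), the pyruvate orthophosphate dikinase that feeds sugar synthesis in germinating seedlings, had -0.02 (SE 0.10). SAMDC (AT3G02470), an S-adenosylmethionine decarboxylase of polyamine synthesis, had 0.23 (SE 0.10, adjusted p = 0.17).

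The electron carriers, redox and membrane proteins had 3 of 6 members called in each comparison with Col-0 dark, 1 higher and 2 lower. This is 50%, against 15.1% of all probe sets after red and 12.1% in pil5 dark. With the block 1 was higher and 3 lower after red (66.7%, against 26.4%), and 2 were higher and 3 lower in pil5 dark (83.3%, against 23.8%). CYTC-1 (AT1G22840), a cytochrome c of the respiratory chain, was the one that rose without the block. It had 12.71, 12.68 and 12.25 in pil5 red, 12.64, 12.68 and 12.56 in pil5 dark, 12.58, 12.57 and 12.59 in Col-0 red and 12.13, 12.07 and 12.18 in Col-0 dark. Again Col-0 dark held the lowest values. It was higher by 0.46 (SE 0.11, adjusted p = 0.021) in Col-0 red and by 0.50 (SE 0.11, adjusted p = 0.019) in pil5 dark. GRXC2 (AT5G40370), a glutaredoxin, was lower by 0.38 (SE 0.10, adjusted p = 0.026) and 0.37 (SE 0.10, adjusted p = 0.032) in the same order.

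ISU1 (AT4G22220), the scaffold on which mitochondria assemble iron-sulphur clusters, was lower after red in Col-0 by 0.53 (SE 0.10, adjusted p = 0.0057). It had 11.83, 11.89 and 12.02 in pil5 red, 11.83, 12.01 and 11.93 in pil5 dark, 11.55, 11.64 and 11.66 in Col-0 red and 12.20, 12.26 and 11.98 in Col-0 dark. Its pil5 arrays lay between the 2 Col-0 groups, except that the third Col-0 dark array overlapped with them. The red effect on ISU1 differed between genotypes by 0.52 (SE 0.14, adjusted p = 0.048), or 0.47 (adjusted p = 0.083) without the third pil5 red array, and its difference in the dark was -0.22 (SE 0.10, adjusted p = 0.18). ARPN (AT2G02850), the copper protein plantacyanin, was lower in pil5 dark by 1.03 (SE 0.21, adjusted p = 0.012), with 11.35, 11.71 and 11.04 against 12.46, 12.57 and 12.17 in Col-0 dark. These groups did not overlap. After red ARPN had 11.50, 11.68 and 12.21 in pil5 and 12.05, 12.27 and 12.07 in Col-0, and its change in Col-0 was -0.27 (SE 0.21, adjusted p = 0.50).

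TIL (AT5G58070), a lipocalin that protects membranes against heat and freezing, was the named member with the highest log2 difference between pil5 and Col-0 after red. It had 12.87, 13.13 and 13.33 in pil5 red, 12.86, 13.21 and 13.30 in pil5 dark, 11.83, 12.10 and 12.88 in Col-0 red and 12.28, 12.61 and 13.09 in Col-0 dark. Within each replicate number pil5 exceeded Col-0, while the ranges of pil5 red and Col-0 red overlapped and TIL was highest in replicate 3 of all 4 groups. The difference after red was 0.84 (SE 0.27, adjusted p = 0.24), and adjusted p = 0.0058 with the block. In the dark it was 0.46 (adjusted p = 0.35, and 0.029 with the block). ATOEP16-2 (AT4G16160), a channel protein of the outer plastid envelope, had changes of -0.66 in Col-0 red and -0.68 in pil5 dark, each with adjusted p = 0.059 without the block and with 0.023 and 0.022 with it.

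Of the 3 defensins and storage proteins 1 was called, in pil5 dark, and the block changed neither count. The shares were 0% after red, against 15.1% of all probe sets, and 33.3% in pil5 dark, against 12.1% (26.4% and 23.8% with the block). PAP85 (AT3G22640), a vicilin-like storage protein, had 12.11, 12.46 and 13.49 in pil5 red, 12.20, 12.68 and 12.48 in pil5 dark, 12.53, 12.75 and 12.53 in Col-0 red and 13.72, 13.71 and 13.11 in Col-0 dark. It was lower in pil5 dark by 1.06 (SE 0.31, adjusted p = 0.047), and in Col-0 red its change was -0.91 (SE 0.31, adjusted p = 0.073), or adjusted p = 0.006 without the third pil5 red array. That array had the highest PAP85 signal outside Col-0 dark. The defensin PDF2.1 (AT2G02120) had a change of -0.49 (SE 0.23, adjusted p = 0.20) after red in Col-0, and LCR67 of -0.06 (SE 0.08).

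**Figure D5:**
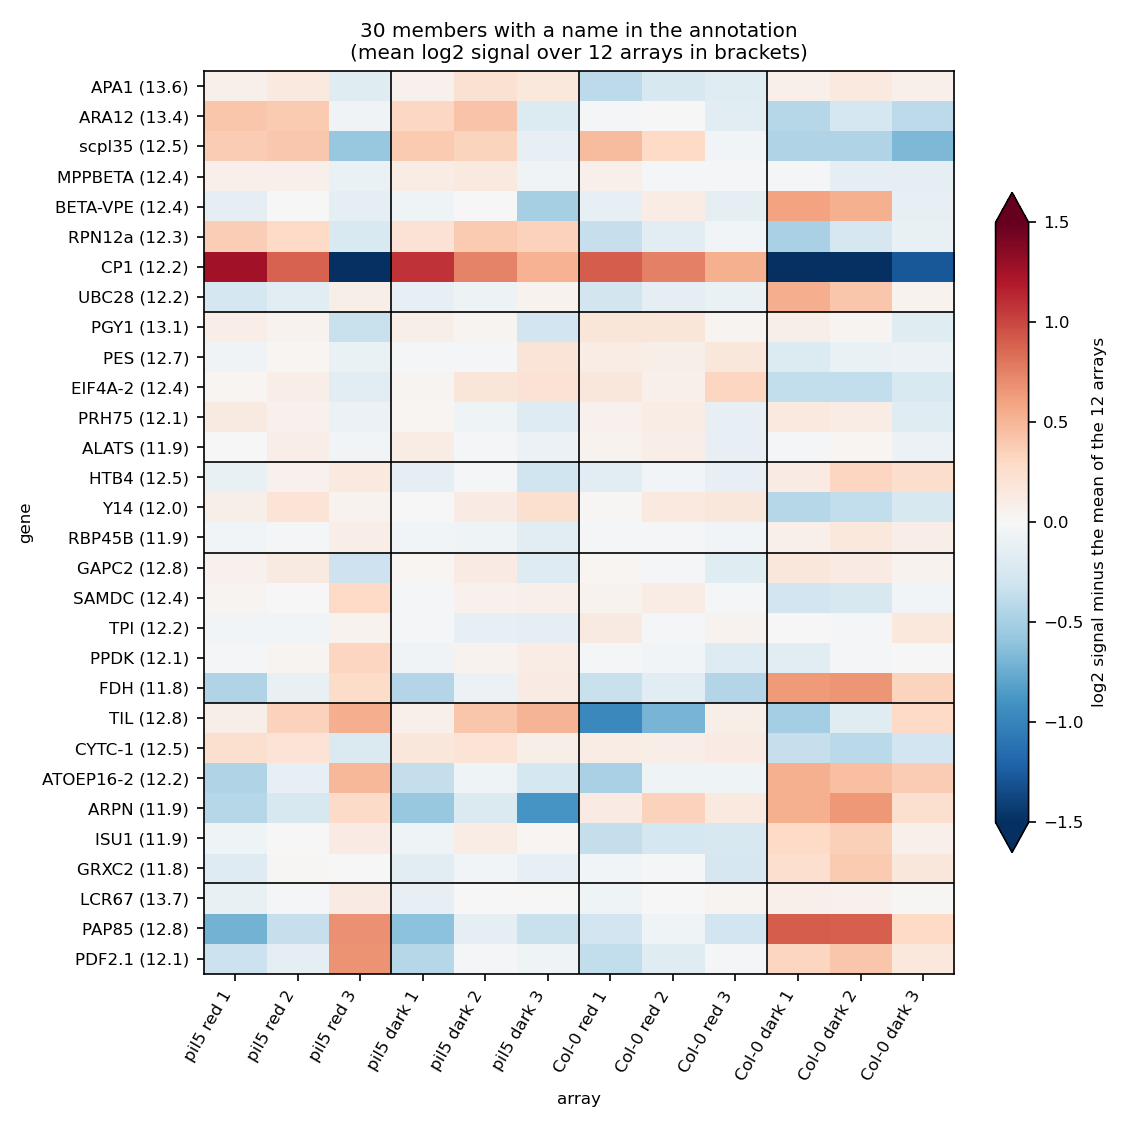
Log2 signal minus the mean of the 12 arrays (colour) for the 30 named members (rows, with the mean log2 signal in brackets) on each array (columns, pil5 red, pil5 dark, Col-0 red and Col-0 dark from left to right). Lines separate the 6 role groups and the 4 sample groups. The Col-0 dark columns stand out, low for CP1, EIF4A-2, Y14 and CYTC-1 and high for PAP85 and FDH, and the third pil5 red array differs from its partners in CP1, PAP85 and PDF2.1.

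Of the 170 members known by locus tag only, 17 were higher and 12 lower after red in Col-0, or 17.1%, against 15.1% of all probe sets. In pil5 dark 11 were higher and 6 lower, or 10%, against 12.1% of all. With the block 38 were higher and 19 lower after red (33.5%, against 26.4% of all probe sets). In pil5 dark 24 were then higher and 13 lower (21.8%, against 23.8% of all). Of the 30 named members 10 were called in each comparison (33.3%), and with the block 13 (43.3%) and 15 (50%), beside the same shares of all probe sets. AT3G56350 had the greatest fall of the whole set. It had 11.14, 11.61 and 12.73 in pil5 red, 11.35, 11.72 and 11.23 in pil5 dark, 10.81, 11.24 and 11.21 in Col-0 red and 13.28, 13.33 and 12.52 in Col-0 dark. The Col-0 dark arrays exceeded all of pil5 dark and Col-0 red, and the third pil5 red array lay among them. The change was -1.96 (SE 0.36, adjusted p = 0.0058) in Col-0 red and -1.61 (SE 0.36, adjusted p = 0.018) in pil5 dark. The red effect in pil5 was 0.40, or -0.06 without the third pil5 red array. The interaction was 2.35 (SE 0.51, adjusted p = 0.028), or 1.90 (adjusted p = 0.017) without that array.

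AT5G67510 had the next rise after that of CP1. It had 12.89, 12.77 and 11.94 in pil5 red, 12.86, 12.73 and 12.75 in pil5 dark, 13.10, 13.02 and 12.91 in Col-0 red and 11.58, 11.37 and 11.87 in Col-0 dark. Col-0 dark was the lowest group and overlapped with no other. The change was 1.40 (SE 0.22, adjusted p = 0.003) in Col-0 red and 1.17 (SE 0.22, adjusted p = 0.0091) in pil5 dark, and the interaction was -1.65 (SE 0.31, adjusted p = 0.02). AT5G62350, AT1G63660 and AT4G26230 followed with rises of 0.95, 0.88 and 0.82 in Col-0 red and of 0.85, 0.86 and 0.61 in pil5 dark, all called, and each of them had a called interaction, of -1.13, -1.08 and -0.86.

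Falls of about 2-fold in both comparisons were found for AT1G54870 and AT1G27461. AT1G54870 had 12.30, 12.70 and 13.31 in pil5 red, 12.44, 12.71 and 12.79 in pil5 dark, 12.09, 12.58 and 12.81 in Col-0 red and 13.51, 13.70 and 13.52 in Col-0 dark. The highest values of the 12 were those of Col-0 dark. It was lower by 1.08 (SE 0.24, adjusted p = 0.013) in Col-0 red and by 0.93 (SE 0.24, adjusted p = 0.032) in pil5 dark. AT1G27461, the member of lowest rank, was lower by 1.04 (SE 0.21, adjusted p = 0.0079) and 0.94 (SE 0.21, adjusted p = 0.016) in the same order, with 11.40, 11.92 and 11.16 in pil5 dark, 11.17, 11.69 and 11.33 in Col-0 red and 12.36, 12.67 and 12.28 in Col-0 dark.

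Without the block AT2G21820 and AT5G66780 were called for genotype in the dark and not for red in Col-0. They were lower in pil5 dark by 1.40 (SE 0.41, adjusted p = 0.048) and 1.09 (SE 0.28, adjusted p = 0.03). Their changes after red in Col-0 were -1.28 and -0.86, with adjusted p = 0.058 and 0.064, and 0.025 and 0.041 with the block. A call in the dark comparison alone is therefore no sign that the 2 comparisons differ for them.

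Some of the calls gained with the block were of genes whose replicate 3 differed from the others in all groups. AT3G09440 had 12.58, 12.78 and 13.15 in pil5 red, 12.53, 12.73 and 13.28 in pil5 dark, 11.99, 11.94 and 12.81 in Col-0 red and 10.71, 11.17 and 12.52 in Col-0 dark. In each group replicate 3 was the highest, and pil5 dark exceeded Col-0 dark in every replicate number. The difference was 1.38 (SE 0.42, adjusted p = 0.056, and 0.0019 with the block). AT3G05500 had a difference of 1.03 in the dark (adjusted p = 0.11, and 0.00092 with the block) and of 0.72 after red (adjusted p = 0.48, and 0.0088 with the block). The calls of these genes in the dark, like that of TIL, were made with the block and not without it.

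Over all members, the highest of the 4 group means was that of pil5 red in 14 (7%, against 17.9% of all probe sets), of pil5 dark in 22 (11%, against 23.7%), of Col-0 red in 129 (64.5%, against 27%) and of Col-0 dark in 35 (17.5%, against 31.4%). The lowest was that of pil5 red in 60 (30%, against 19.3% of all probe sets), of pil5 dark in 23 (11.5%, against 18.9%), of Col-0 red in 33 (16.5%, against 28.5%) and of Col-0 dark in 84 (42%, against 33.3%). The pil5 red means include the third array, and the counts moved when it was left out. Without that array the lowest mean was that of pil5 red in 14 members (7%, against 21% of all probe sets), of pil5 dark in 43 (21.5%, against 19.9%), of Col-0 red in 30 (15%, against 25.7%) and of Col-0 dark in 113 (56.5%, against 33.4%). The highest was then that of pil5 red in 36 (18%, against 17.6%), of pil5 dark in 16 (8%, against 24.2%), of Col-0 red in 112 (56%, against 25.2%) and of Col-0 dark in 36 (18%, against 33%). The shift of Col-0 red against Col-0 dark was small and present in each replicate number. The median change of the members after red in Col-0 was 0.14, 0.18 and 0.11 for numbers 1, 2 and 3, with 145, 149 and 140 members higher. Over all probe sets the median was 0.0024, -0.0026 and -0.0013, and the share of them that was higher is not given here. For pil5 in the dark the members' median was 0.09, 0.10 and -0.02 (-0.0025, -0.0008 and 0.021 over all), so a rise was absent in number 3. In pil5 the members' red change had medians of -0.01, 0.01 and -0.19 (-0.0028, 0.0024 and -0.0358 over all). Their difference between pil5 and Col-0 after red had -0.08, -0.06 and -0.31 (0.0027, 0.0001 and -0.0064 over all).

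Without the third pil5 red array 69 members were called for red in Col-0 (43 higher and 26 lower), or 34.5%, against 20.5% of all probe sets in the same fit. For pil5 in the dark 49 were called (31 higher and 18 lower), or 24.5%, against 17.4% of all. The interaction was called for 13, or 6.5%, against 5.87% of all, last light in pil5 for 0, against 0% of all, and genotype after red for 0, against 0.123% of all. With the block and without that array the count was 99 for red in Col-0 (49.5%, against 34.2% of all probe sets), 72 for pil5 in the dark (36%, against 32.4%) and 41 for the interaction (20.5%, against 18%). It was 0 for last light in pil5 (0% of all) and 17 for genotype after red (8.5%, against 9.6%). The test for any difference called 93 members (46.5%, against 39.3% of all probe sets), and without the block 57 (28.5%, against 18.5%).

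Most calls made without the block depended on at least 1 array. Of the 39 members called for red in Col-0, 13 stayed called whichever array was left out: EIF4A-2, Y14, ISU1, AT3G56350, AT5G67510, AT1G63660, AT4G26230, AT5G11420, AT4G29410, AT3G13230, AT5G20160, AT2G40360 and AT1G27461. For pil5 in the dark 2 of 27 did, AT5G67510 and AT5G20160, and of the 15 interactions 0 did. CP1, whose log2 changes were the highest of all members, was not among them: leaving out any of 4 arrays ended its call for red in Col-0, with adjusted p up to 0.09. How many calls among all probe sets stayed in the same way is not given here, so these counts do not set the members apart.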

How the data were processed

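RNA of 12 samples was measured on 1 Affymetrix array each, with biotin-labelled cRNA, per the labels' protocols. The deposited values are log2 signals of 22810 probe sets from 2.87 to 14.8, already normalized across arrays by the authors. MAS5 5.0 and RMA are named, per the submitters' processing notes, without the role of either. The titles gave the genotype and last light of each sample. After 64 control probe sets had been set aside, 22746 were used as deposited, and no column belonged to another series. As the deposited table is in log2 units, the intended pseudocounts of 1 and 64 did not apply.

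Members were chosen from the supplied probe set annotation, in which 8730 probe sets had no gene and 503 had several, and were matched by locus to RefSeq. The members and lists were chosen with earlier results of these data known. The intended lists of functions rested on locus tags, and since the tables name only 30 members, the 6 role groups were made from those names after the annotation had been seen, and 3 members on the earlier lists that the tables leave unnamed keep their locus tags. The genes named are the 15 brightest, up to 8 called members each way in each comparison with named genes first, up to 4 each way for the interaction, the 3 brightest of each role group, the other named members and the edge of the list. AT1G01300, AT3G58610, AT3G09440, AT3G05500, AT3G19920, the members called only with the block, those of ranges that did not overlap between the pil5 groups and the genes listed as stable to leaving out an array were added after their values were seen. No promoter or protein sequences were used here.

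A single model of all 12 arrays, in which each group had its mean, was fitted with limma 3.58.1 under R 4.3.3 (eBayes, no trend), with Benjamini-Hochberg adjustment over 22746 probe sets and a threshold of 0.05. Python 3.11.15 with matplotlib 3.10.9 drew the figures. The number of arrays limits the precision. Whether the biological replicates came from separate seed batches is not stated, and the p-values measure only the spread between them.

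The labels give all groups the numbers 1 to 3 without saying what a number stands for. In the data, deviations from the group means correlated between arrays of different groups at 0.175 to 0.709 for arrays of equal number and at -0.677 to 0.407 for arrays of unequal number. The pairing was less clear for number 2. The second pil5 red array correlated at 0.316 with the second and at 0.406 with the first Col-0 red array. The second pil5 dark array correlated at 0.472 and 0.188 with the same 2 arrays. On these values, taken from the same data, the number was treated as a pairing in a second fit, with the number as a block. Within groups arrays correlated at 0.968 to 0.997.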

Additional observations from a re-analysis of the deposited data

Results flagged for a closer look

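For 15 members the red effect differed between the genotypes by the interaction term of the limma fit, without the block. Each value is the log2 red change in pil5 minus that in Col-0. It was below 0 for AT5G67510 (-1.65), AT5G62350 (-1.13), AT1G63660 (-1.08), AT4G26230 (-0.86), AT4G29410 (-0.77), AT3G18600 (-0.75), EIF4A-2 (-0.68), AT3G13230 (-0.58), AT2G40360 (-0.55) and AT5G20160 (-0.54). It was above 0 for AT3G56350 (2.35), AT1G27461 (1.15), AT4G27450 (0.74), HTB4 (0.54) and ISU1 (0.52). The adjusted p lay between 0.0201 and 0.04996, and for each of the 15 at least 1 array could be left out that ended the call.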

How the results depend on the processing

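The share of the 200 members called moved with how the spread was estimated, and no called change turned round. For red in Col-0 it was 19.5%, 35% with the replicate block, 31% in a fit of the 6 arrays compared, 49.5% with array weights, 11% among the top 100, and 2.5% at 2-fold or more. For pil5 in the dark it was 13.5%, 26% with the replicate block, 42.5% with array weights, 8% among the top 100, 21% among the top 400 and 3.5% at 2-fold or more. For pil5 after red it was 0%, 5% with the replicate block, 11.5% with array weights and 0.25% among the top 400. For the interaction it was 7.5%, 21.5% with the replicate block, 39% with array weights, 4% among the top 100, 15% among the top 400 and 2.5% at 2-fold or more. For any difference among the 4 groups it was 10.5%, 34% with the replicate block, 49.5% with array weights, 6% among the top 100 and 18.8% among the top 400. With the block and without the third pil5 red array, an alternative added after seeing the data, the shares were 49.5%, 36%, 8.5%, 20.5% and 46.5% in that order. For red in pil5 the share was 0% under every alternative run. Leaving out 1 array in turn gave 6.5 to 34.5% for red in Col-0, 1 to 24.5% for pil5 in the dark, 0 to 0% for red in pil5, 0 to 0% for genotype after red, 0 to 14% for the interaction and 0 to 28.5% for any difference. Centring on medians, quantile normalization, a robust fit with trend, omission of the dimmest 50% of probe sets and ranking by the lowest group mean moved no share by more than 1.5 times. Leaving out _s_at and _x_at probe sets changed nothing, since 0 members are of that kind. The cause of these moves was not tested beyond the smaller sets and fewer arrays that some of them use. Shares of all probe sets are not given here for the array weights, the fit of the arrays compared or the 2-fold limit. Nor are they given for single arrays left out, other than the third pil5 red array. The members' shares under those settings thus do not tell whether the members or the whole array gained or lost calls.

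The counts for red in Col-0 moved by more than 1.5 times without the third pil5 red array (69 members), Col-0 red array 1 (13), 2 (22) or 3 (23), or Col-0 dark array 1 (18) or 2 (14). Those for pil5 in the dark did so without the third pil5 red array (49), pil5 dark array 1 (10), 2 (13) or 3 (9), or Col-0 dark array 1 (7) or 2 (2). The interaction count of 15 did so without pil5 red array 1 (28) or 2 (9), pil5 dark array 1 (0), 2 (6) or 3 (3), Col-0 red array 1 (0), 2 (4) or 3 (2), or Col-0 dark array 1 (0) or 2 (0). For the genes named, 4753 alternatives kept the call or its absence, 231 lost it and 164 gained it.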
